A study of Arabidopsis thaliana with 22 samples.

Results

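In inflorescences of wild-type (WT) Col-0 Arabidopsis, 1051 of 23884 nuclear peaks of trimethylated histone H3 lysine 4 (H3K4me3) were wide, lay in the chromosome arms and were set apart from binding sites of ZMP. The members were chosen by 3 values. The first was a width of 800 bases or more in the single H3K4me3 library. The second was a midpoint outside the pericentromeric windows (13.1 to 16.7 Mb of chromosome 1, 3.8 to 6.1 Mb of chromosome 2, 11.3 to 15.9 Mb of chromosome 3, 2.7 to 5.6 Mb of chromosome 4 and 10.1 to 13.9 Mb of chromosome 5). The third was a distance of more than 1 kb from every ZMP-HA peak. Of 1196 peaks that were wide enough, 28 fell in the windows and 117 of the remaining 1168 lay within 1 kb of a ZMP-HA peak. The comparison set held the 19726 narrower arm peaks that met the same distance rule.

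The study profiled chromatin of Col-0 inflorescences by chromatin immunoprecipitation and sequencing (ChIP-seq), with 11 immunoprecipitations deposited as peak lists. Pol IV was followed in 2 libraries of WT plants and 2 of zmp-2 plants, all carrying pNRPD1::NRPD1-HA, the HA-tagged largest Pol IV subunit under its own promoter, and zmp-2 is a T-DNA insertion allele of ZMP. ZMP was followed in 2 libraries of WT plants carrying pZMP::ZMP-HA. The H3K4me3 library came from WT plants without a transgene and has no replicate, and 4 libraries of WT plants without a transgene (sets A and B, 2 each) give the background. The set A libraries are labelled with no antibody, and the set B libraries with the anti-HA antibody. Each sample is a bulk tissue, so a mark in fewer cells and less of the mark per cell cannot be told apart. None of the labels says whether replicates came from separate pools of plants.

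H3K4me3 is placed by trithorax-type methyltransferases at the 5′ part of genes transcribed by RNA polymerase II, and its width varies from gene to gene. Pol IV is a plant-specific RNA polymerase that starts RNA-directed DNA methylation: its short transcripts are copied by RDR2 and cut into small interfering RNAs that direct DNA methylation, mostly at transposons. ZMP has a plant homeodomain finger, a module that reads the tail of histone H3, beside SWIB and Plus-3 domains.

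A few windows of sequence show what the DNA under these peaks looks like: the summits of the widest peak (TIC), of the most enriched peak (AT2G15440) and of the EMB1025 peak, which Pol IV overlapped in every NRPD1-HA library, and the promoter of EMB1025, where both signals meet. Each runs 5′ to 3′ on the coding strand of the gene, read from the RefSeq TAIR10.1 assembly. Capitals mark matches to 5 motifs searched on both strands: TATAAA, the telo-box AAACCCTA, the site II core TGGGCC, GAGAGAGA and CTTCTTCTT. Matches on opposite strands can share bases, as in TTTATAAA. A match is a description of the letters and not a bound site.
TIC, summit, chr3:7913070-7913269, plus strand: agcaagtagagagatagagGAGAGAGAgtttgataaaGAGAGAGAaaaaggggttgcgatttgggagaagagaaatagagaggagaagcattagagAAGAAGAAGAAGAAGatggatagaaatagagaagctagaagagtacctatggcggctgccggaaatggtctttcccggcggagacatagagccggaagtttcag
AT2G15440, summit, chr2:6744527-6744726, minus strand: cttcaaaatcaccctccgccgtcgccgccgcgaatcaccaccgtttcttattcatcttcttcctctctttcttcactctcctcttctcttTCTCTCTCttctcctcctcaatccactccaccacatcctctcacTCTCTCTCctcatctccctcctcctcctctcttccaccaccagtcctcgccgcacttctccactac
EMB1025, summit, chr4:10870179-10870378, minus strand: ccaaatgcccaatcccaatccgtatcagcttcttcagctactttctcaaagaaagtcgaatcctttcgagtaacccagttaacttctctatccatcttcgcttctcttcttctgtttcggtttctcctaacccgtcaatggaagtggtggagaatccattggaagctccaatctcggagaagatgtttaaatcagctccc
EMB1025, promoter, chr4:10870602-10870901, minus strand: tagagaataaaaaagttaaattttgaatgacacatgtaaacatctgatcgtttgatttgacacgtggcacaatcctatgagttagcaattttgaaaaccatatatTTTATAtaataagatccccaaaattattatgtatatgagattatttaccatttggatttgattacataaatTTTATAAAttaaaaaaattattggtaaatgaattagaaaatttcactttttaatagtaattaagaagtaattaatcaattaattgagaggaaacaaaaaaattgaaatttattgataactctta

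The TIC and AT2G15440 summits held repeats of GA or GAA on one strand or the other, with 5 and 2 motif matches. The EMB1025 summit held none, and its promoter was AT-rich (21.3% G or C) with 3 matches to TATAAA. Across all members, CTTCTTCTT occurred in the 300 bases around the summit of 288 of 1051 peaks (27.4%) and of 3276 of 19725 narrow peaks (16.6%). GAGAGAGA occurred in 23.3% against 16.4%, the telo-box in 15.0% against 11.2%, TATAAA in 23.5% against 25.4% and the site II core in 1.43% against 2.35%. Host promoters were taken from 250 bases before to 50 after the 5′ end. There, the site II core TGGGCC was found in 12.7% of the 1033 hosts of a wide peak. It was found in 21.4% of the 13638 genes that hosted a narrow peak and no member, and in 15.7% of all arm genes. GAGAGAGA was found in 13.2% of the promoters of wide-peak hosts, against 9.11% and 8.38%, and TATAAA in 53.7%, against 50.8% and 52.2%. These shares rest on 1 H3K4me3 library and carry no test.

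The wide peaks were strong as well as wide, although width and strength come from the same library and are given as a description. Their median width was 916 bases (quartiles 846.5 and 1027, maximum 2387) and their median fold enrichment over input at the summit was 14.9 (3.30 to 163). Narrow peaks had a median width of 259 bases and a median fold enrichment of 5.34. The background estimate of this library was 5.37 fragments per base for most peaks, the lowest of all lists, against 25.02 to 41 in the NRPD1-HA libraries. Median fold enrichment rose with width among members. It was 14.1 from 800 to 1000 bases, 15.2 from 1000 to 1200 bases and 20.9 above that. In the plot of width against enrichment, the 10 widest and the 10 most enriched peaks shared no member. Lists this short say little about how the rankings compare.

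**Figure D1:**
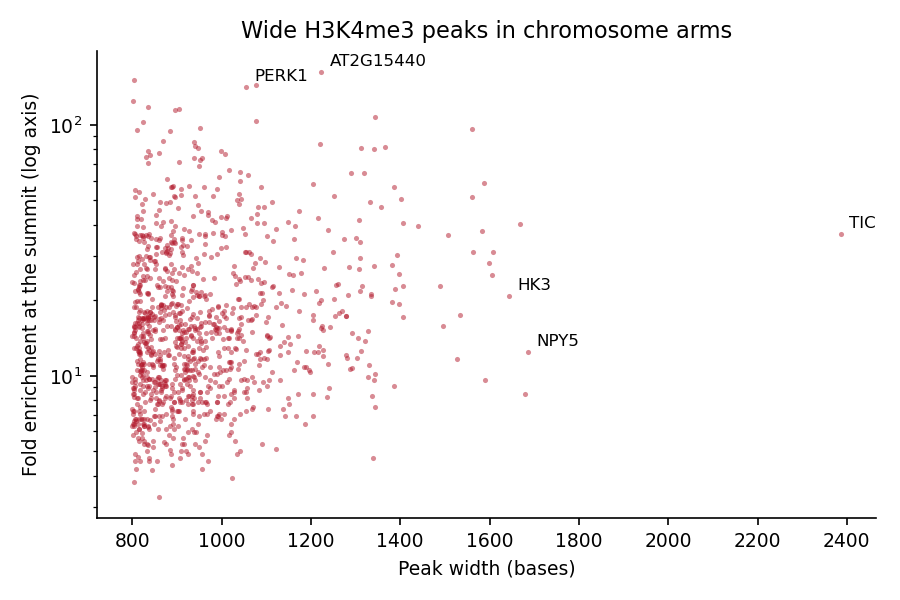
Each point is one of the 1051 wide arm peaks, with its width in bases on the x axis and its fold enrichment at the summit on a log y axis. Most points lie between 800 and 1200 bases, TIC stands alone at 2387 bases, and AT2G15440 is highest at a fold enrichment of 163.

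The widest peak, chr3:7913025-7915411, covered 2387 bases of TIC (TIME FOR COFFEE, AT3G22380), a regulator of the circadian clock. It ran from 120 to 2506 bases downstream of the 5′ end, with the summit at 265 bases in the 5′ UTR, and had a fold enrichment of 36.7. The peaks next in width lay over NPY5 (AT4G37590), an NPH3-domain protein of organ formation, with 1687 bases, and over the divergent genes AT4G18520 and AT4G18530, with 1680 bases. AT3G50690, a leucine-rich repeat protein gene, had 1669 bases, and HK3 (AT1G27320), a cytokinin receptor, had 1643. The remaining 5 of the 10 widest (AT3G28140, AT5G24320, AT5G55600, AT2G32710 and AT1G33360) spanned 1588 to 1607 bases. AT2G32710 encodes an inhibitor of cyclin-dependent kinases. None of these 10 peaks had an NRPD1-HA peak within 1 kb in any library.

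The most enriched peak, chr2:6743644-6744866, covered 91.1% of AT2G15440, which encodes a polysaccharide biosynthesis protein with a DUF579 domain. Its fold enrichment was 163 and its summit lay 209 bases into the gene, in the coding part of exon 1. AT5G19025, annotated as a ribosomal protein L34e superfamily member, followed with 152. AT2G04620, a zinc transporter-like gene, had 144, and PERK1 (AT3G24550), a receptor kinase with a proline-rich extensin-like domain, had 141. The next were B160 (125), the calcium-sensor-regulated kinase CIPK7 (118), AT3G20430 beside RTL2 (116), the DOF transcription factor CDF2, a repressor of flowering (115), EMB3114 (107) and AT1G31130 (103).

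The 800-base limit cut through a continuous range. The 24 members of 800 to 804 bases included B160, ATE2F2, AT1G55530, the gibberellin biosynthesis gene GA3 and FUT12 (fold enrichment 125, 37.0, 28.0, 25.3 and 23.7). The 25 peaks of 795 to 799 bases just outside included AT2G18750, the glycolytic gene GAPC2, FAB1D, RH39 and CAT2 (65.3, 45.2, 41.3, 27.2 and 22.8). The medians of these sets were 9.22 inside and 11.5 outside.

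Almost all members lay over protein-coding genes. Of 1051 peaks, 1033 (98.3%) overlapped at least 1 such gene, and 80 of these overlapped 2 or more. The gene that shared most bases with a peak is called its host here, and each of the 1033 peaks had a different host. The hosts were 1033 of the 26535 protein-coding genes of the arms, the 3.89% that the width rule itself fixes. Members were spread over all chromosomes, 259 on chromosome 1, 166 on chromosome 2, 207 on chromosome 3, 152 on chromosome 4 and 267 on chromosome 5. They made up 4.71 to 5.47% of the wide and narrow arm peaks of each chromosome.

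The wide peaks began at the 5′ end of their host and reached about 1 kb into it. The median member started 41 bases and ended 985 bases downstream of the host 5′ end, whereas the median narrow peak ran from 272 to 644 bases. Summits were at nearly the same place, 459 bases downstream in members and 454 in narrow peaks. A protein-coding 5′ end lay inside 393 members (37.4%, 95% Clopper-Pearson interval 34.5 to 40.4%) and inside 12.2% of narrow peaks, and within 500 bases of 94.4% against 70.7%. A longer interval holds a given base more often, so these shares describe the width rule in part. Intervals here and below cover counting error over peaks and not the variation between libraries.

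**Figure D2:**
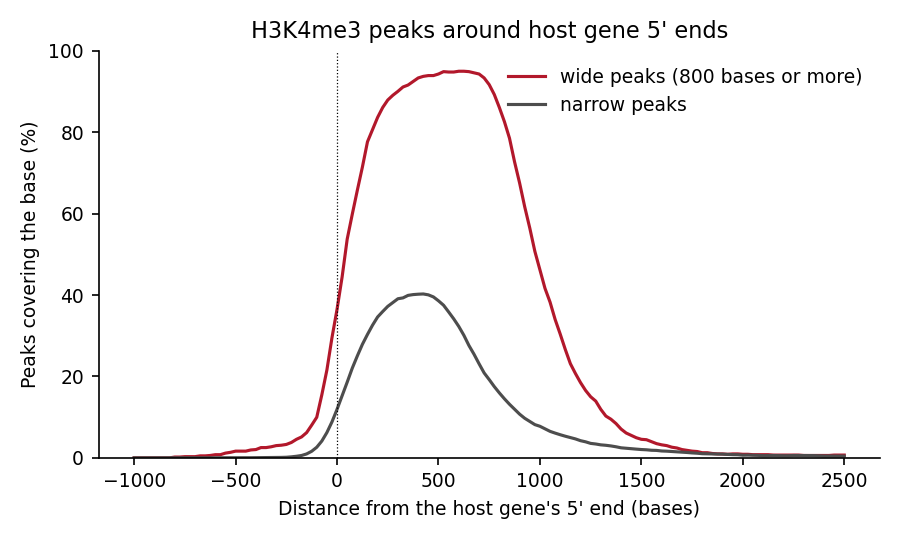
The x axis is the distance from the host gene's 5′ end in bases, negative upstream, and the y axis is the percentage of the 1033 wide (red) or 18885 narrow (grey) peaks over protein-coding genes that cover each base. Wide peaks rise steeply at the 5′ end and fall off near 1 kb, and narrow peaks crest somewhat nearer the 5′ end with a lower share.

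Within the host's longest annotated transcript, the summit of 335 members (32.4%) lay in the 5′ UTR, of 348 (33.7%) in a coding exon, of 274 (26.5%) in the first intron and of 53 (5.13%) in a later intron. Narrow summits were in the 5′ UTR in 21.7% and in a later intron in 9.57%. The first exon held the summit of 57.8% of members and 44.7% of narrow peaks. Only 8 members (0.774%) had their summit in a 3′ UTR.

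The hosts of wide peaks were long genes. Their median length was 2978 bases, against 2492 for hosts counted at each narrow peak and 2090 for all arm genes. The share of arm genes with a wide peak was 0.246% under 1 kb of gene length, 1.95% from 1 to 2 kb, 4.80% from 2 to 3 kb, 7.59% from 3 to 5 kb and 7.08% above that. These shares count genes with and without an H3K4me3 peak alike. The share with any H3K4me3 peak also rose, with 18.0, 51.7, 70.6, 76.5 and 84.8% in the same classes. Among genes with any peak, 10 of 735, 163 of 4324, 349 of 5128, 398 of 4015 and 113 of 1352 had a wide one. A member covered a median of 30.8% of its host, and 143 members (13.8%) covered at least 50% of it. Wide peaks were also less often fragments of a cluster: another H3K4me3 peak lay within 200 bases of 111 members (10.6%) and of 25.4% of narrow peaks.

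A small set of 40 members held the 5′ ends of more than one protein-coding gene. In 22 the genes pointed away from each other, in 17 towards each other with overlapping ends, and in 1 they ran the same way. Most enriched among them were the peak shared by AT3G20430 and RTL2, an RNase III-like gene (fold enrichment 116), and the peak of ATPD, the delta subunit of the plastid ATP synthase, with AT4G09649 (80.3). AT1G33350 with AT1G33360 (58.6), MED9, a Mediator subunit, with AT1G55090 (52.9), and the bZIP factor AHBP-1B with AT5G06940 (49.5) followed.

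Another 18 members overlapped no protein-coding gene and lay over RNA genes or pseudogenes. They included the loci of MIR159a (fold enrichment 9.74), MIR159b (14.0), MIR162a (6.28) and MIR162b (5.34), which encode microRNAs that target MYB transcripts and the DCL1 transcript. Clusters of small nucleolar RNA genes, which guide modification of ribosomal RNA, lay under 5 of these peaks, the strongest at chr4:8712664-8713539 with a fold enrichment of 31.1. The long noncoding RNA GUT15 had a peak of 1336 bases with a fold enrichment of 8.33. The strongest peak of the 18, 39.7, lay over the transcribed pseudogene AT4G22020.

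Gene families differed in how often a member carried a wide peak, although many counts were small. Of 202 homeobox and homeodomain-like genes, 22 (10.9%) were hosts, against 3.89% of all arm genes. They included AT4G37180 (1331 bases), AT1G76880 (1102 bases), HB34 (1094 bases) and the organ polarity gene KAN (1060 bases). REV (1053 bases), PHV (900 bases) and ATHB-15 (988 bases), HD-ZIP III factors of organ polarity and meristem function, were also among them and were named after their values were seen. Auxin response factor and Aux/IAA genes gave 5 of 46 (10.9%), with IAA12 at 1044, ARF6 at 1005 and IAA16 at 939 bases. Cyclins, cyclin-dependent kinases and their inhibitors gave 7 of 96 (7.29%), with AT2G32710, AT1G12330 (1321 bases), CYCD4;1 (1044 bases) and CYCD3;1 widest.

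Of all 26535 arm genes, 15554 (58.6%) carried an H3K4me3 peak. Among 34 floral identity and meristem genes, which also check the labelled tissue, 26 (76.5%) carried an H3K4me3 peak and 4 a wide one. These were SEP2 (1169 bases, fold enrichment 11.3), REV (31.1), SEP1 (1020 bases, 8.48) and SVP (913 bases, 15.2). SEP3, at 785 bases, fell just short, and AG reached 683. AP1 (450 bases), AP3 (233 bases) and PI (325 bases) were marked by narrower peaks, and LFY, UFO, WUS, CLV3 and TFL1 carried none. Of 118 genes in the wider MADS-box family, 35 (29.7%) were marked. Wide peaks lay over 5 (4.24%, or 14.3% of the marked genes), with AGL18 (879 bases) and AGL42 (824 bases) beside the 3 above.

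Genes of the silencing pathway itself were mostly marked (91.7% of the RNA-directed DNA methylation list, against 58.6% of all arm genes). Of 24 RNA-directed DNA methylation genes, 22 carried a peak and 3 (12.5%, against 3.89% of all arm genes) a wide one: the chromatin remodeller gene CHR40 (949 bases, fold enrichment 5.18), the Argonaute gene AGO9 (934 bases, 12.4) and NRPD1 (listed as NRPD1A, 890 bases, 6.91). RDR2 had a narrow but stronger peak (466 bases, 27.6), and AGO4 had 507 bases. Of 13 DNA methylation maintenance and removal genes, 1 (7.69%) was wide, the demethylase gene DME (808 bases, fold enrichment 36.1), and MET1 had 177 bases. None of 14 H3K4 methylation writers and erasers was wide, with SDG2 the widest at 713 bases.

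Most other lists lay near or below 3.89%. That share counts genes with and without an H3K4me3 peak alike. Among genes with any peak, 6.64% of all arm genes had a wide one. By this count homeobox and homeodomain-like genes gave 14.8%, WRKY genes 10.5%, receptor-like kinases 6.78%, F-box genes 4.38% and NLR genes 2.94%. Transposon-type genes gave 16.7%, on 12 marked genes. Ribosomal protein genes were mostly marked (269 of 314, 85.7%, against 58.6% of all arm genes), yet 12 (3.82%) were wide, led by emb2184 (1406 bases) and EMB3113 (1318 bases). Receptor-like kinases gave 12 of 381 (3.15%), among them PERK10 (1255 bases) and AT2G01820 (1182 bases). WRKY genes gave 4 of 70 (5.71%), with WRKY2 widest (948 bases), MYB genes 4 of 153, with AT4G33740 widest (1314 bases), ERF and AP2 genes 3 of 95, with WRI1 widest (1022 bases), and heat shock protein genes 4 of 145, with AT5G53150 widest (989 bases). F-box genes gave 6 of 636 (0.943%), 2 of them the auxin receptor genes AFB2 (1131 bases) and AFB5 (1035 bases). Disease resistance genes of the NLR type gave 2 of 154, RPP13 (925 bases) and AT1G61100 (861 bases), and transposon-type genes 2 of 73, AT3G23910 (898 bases) and AT3G19120 (823 bases). Tubulins and actins gave 2 of 22 (9.09%), TUA2 (856 bases) and ACT1 (853 bases), and photosystem genes 1 of 66, PSAF (945 bases). No wide peak was found over 243 cytochrome P450, 83 NAC, 76 SAUR-like, 49 histone or 177 defensin-type genes, of which only 3 of the last carried any H3K4me3 peak.

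**Figure D3:**
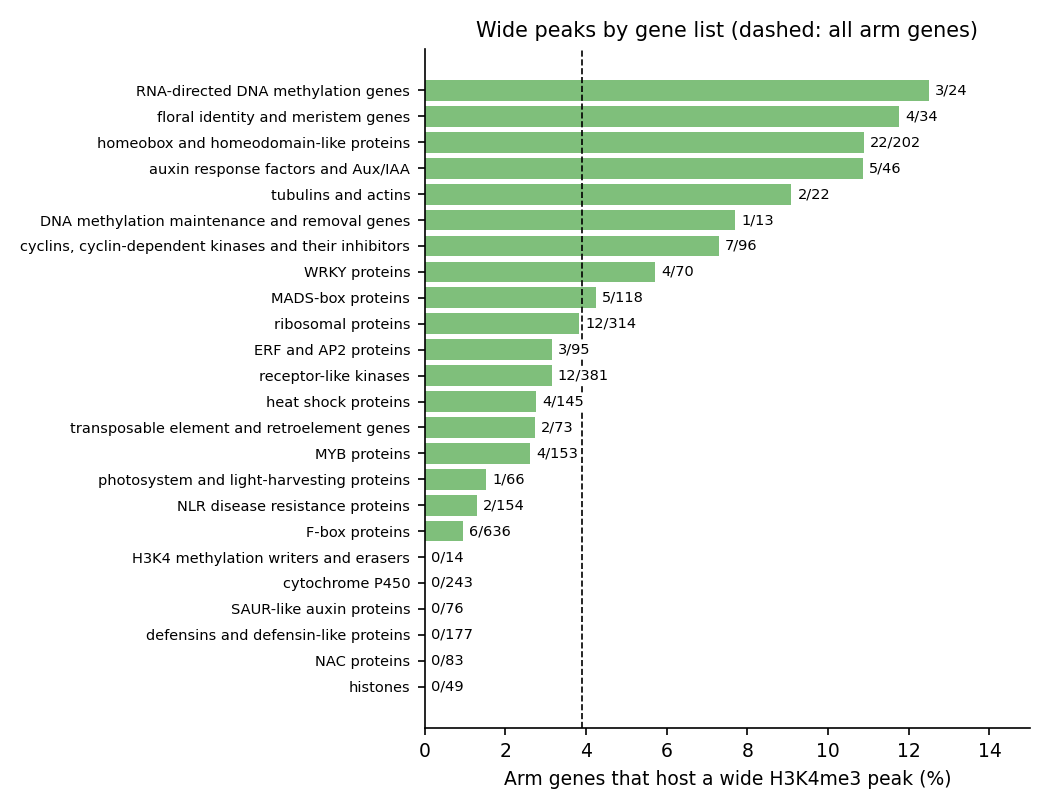
Bars give the percentage of the protein-coding arm genes of each list that host a wide H3K4me3 peak, with the counts written beside them, and the dashed line is the 3.89% of all arm genes. RNA-directed DNA methylation, floral, homeobox/homeodomain-like and auxin factor lists reach 10.9 to 12.5%, and 6 lists have no wide peak.

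Gene length differed between these lists, and its part in their shares was not tested. The median gene length was 2090 bases over all arm genes. It was 4268 bases in the RNA-directed DNA methylation list, 2884 in the floral list and 2204 in the homeobox and homeodomain-like list. Histone genes had a median of 955 bases and defensin-type genes 556. H3K4 methylation genes had a median of 5416 bases and no wide peak among 14 genes. NLR genes had 4167 bases and 1.299%, receptor-like kinases 3271 bases and 3.15%, and cytochrome P450 genes 2063 bases and no wide peak.

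Pol IV seldom overlapped a member and usually lay several kilobases away. The choice of members bears on this, as it left out the 117 wide arm peaks within 1 kb of ZMP-HA. NRPD1-HA peaks overlapped 16.2 to 27.4% of those 117. Distances count the bases between edges, with 0 for peaks that overlap or touch. The median distance from the edge of a member to the edge of the nearest NRPD1-HA peak was 9978 and 8716 bases in WT replicates 1 and 2, and 9539 and 7343 bases in zmp-2 replicates 1 and 2. NRPD1-HA peaks shared at least 1 base with 5 members (0.476%) and 2 members (0.190%) in the WT libraries and with 10 (0.951%) in each zmp-2 library. Of all members, 31.9, 27.1, 29.9 and 21.5% lay over 20 kb from Pol IV in the same order of libraries. Narrow peaks were overlapped in 0.624, 0.603, 0.679 and 0.928%, and 36.6, 31.6, 34.1 and 25.2% of them lay over 20 kb away.

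An NRPD1-HA peak lay within 1 kb of 64 members (6.09%) in WT replicate 1, 88 (8.37%) in WT replicate 2, 76 (7.23%) in zmp-2 replicate 1 and 118 (11.2%) in zmp-2 replicate 2. The peaks of plants without a transgene lay within 1 kb of 3 members in each set A library and 1 in each set B library, 0.0951 to 0.285%. In both WT libraries together, 55 members (5.23%) had Pol IV within 1 kb, against 3.91% of the 20777 wide and narrow arm peaks beyond 1 kb of ZMP-HA. In all NRPD1-HA libraries 45 members (4.28%) did, against 3.17% of narrow peaks. No Pol IV in any library was found at 919 members (87.4%), against 90.6% of narrow peaks.

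Measured from their edges, wide peaks had Pol IV nearby more often than narrow peaks in all 4 libraries. The narrow shares were 4.40, 5.56, 5.22 and 8.49%. The difference averaged 2.31 percentage points (1.69 to 2.81, SD 0.550, n = 4 libraries, exact two-sided sign-flip permutation p = 0.125, the smallest that 4 libraries allow). Measured from the midpoints it shrank to 0.199 points (exact sign-flip permutation p = 0.250), with 3.43, 5.04, 4.38 and 7.33% of members and 3.49, 4.50, 4.25 and 7.13% of narrow peaks. The edge of a wide peak reaches farther from its midpoint than that of a narrow one. Taken from the host 5′ end instead, which does not depend on peak width, the shares were 5.52, 8.33, 7.36 and 11.04% for hosts of wide peaks and 4.85, 6.23, 5.84 and 9.24% for genes with narrow peaks only. This difference was 1.52 points (SD 0.613, exact sign-flip permutation p = 0.125), and this measure was chosen after the data were seen.

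**Figure D4:**
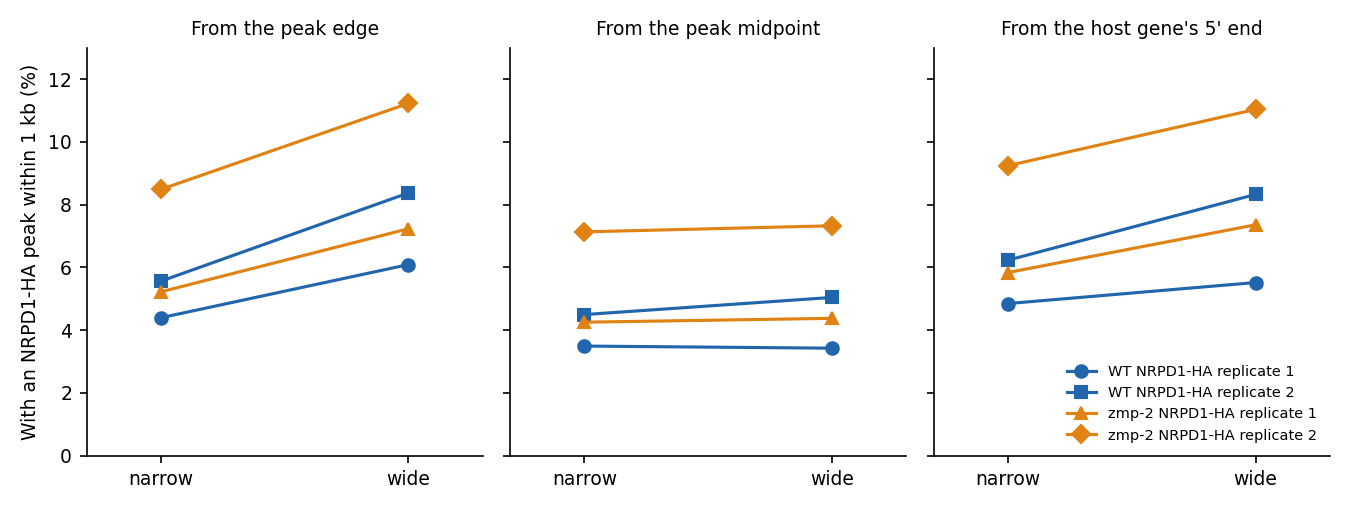
Points give the percentage of narrow and wide peaks with an NRPD1-HA peak within 1 kb in each library (WT in blue, zmp-2 in orange), measured from the peak edge (left), the peak midpoint (centre) or the host gene's 5′ end (right). Lines join the narrow and wide values of a library, and they rise in all 4 libraries on the left and right and stay nearly flat in the centre.

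The difference in median distance was less tied to the way distance was taken. Narrow peaks lay a median of 13128.5, 11319, 12046 and 8835 bases from Pol IV, so members were closer by a mean of 2.44 kb (difference -2.44 kb, SD 0.692, 4 of 4 libraries, exact sign-flip permutation p = 0.125). From midpoints the difference was -2.10 kb and from host 5′ ends -2.46 kb, each with an exact sign-flip permutation p of 0.125. The rule kept both classes more than 1 kb from ZMP-HA peaks, but beyond that limit members lay nearer to them, at a median of 15.982 kb against 18.9135 kb. Members were also nearer to the pericentromeric windows, at a median of 6.01 Mb against 6.71 Mb, with 5.52% against 3.84% within 1 Mb. The part of these positions in the shorter distance to Pol IV was not tested. Pol IV and ZMP peaks often lie together: of the 117 wide peaks near ZMP-HA, 90.6 to 94.9% had Pol IV within 1 kb.

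**Figure D5:**
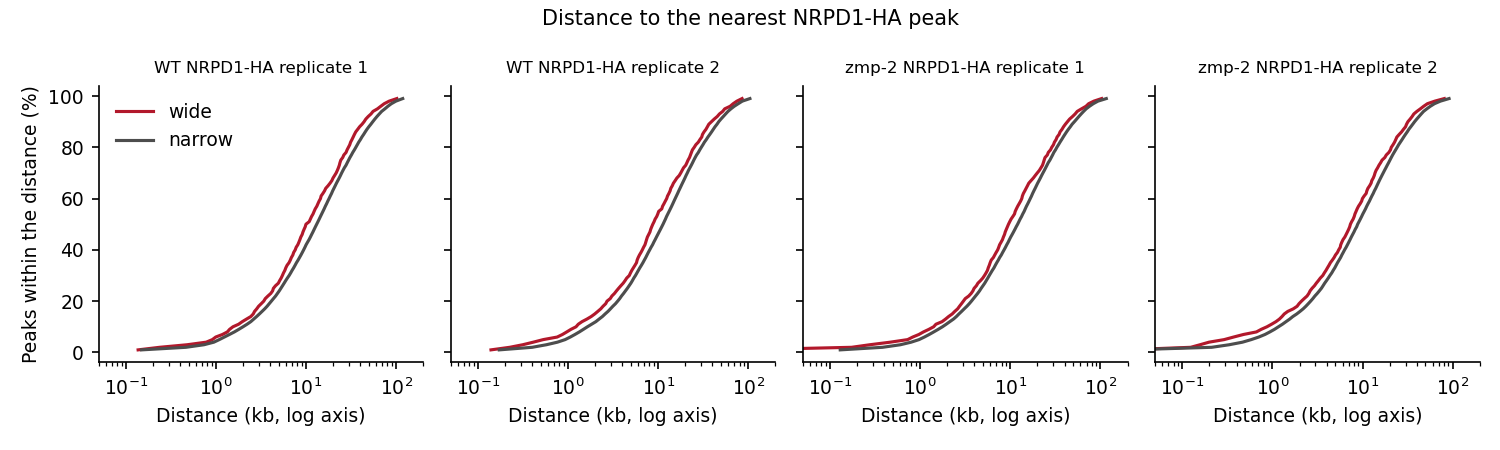
Each panel is 1 NRPD1-HA library, with the distance to its nearest peak in kb on a log x axis and the percentage of wide (red) or narrow (grey) H3K4me3 peaks within that distance on the y axis. The wide curve lies to the left of the narrow curve in every panel over most of the range, with medians between 7.34 and 9.98 kb against 8.84 and 13.1 kb.

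The share near Pol IV did not rise steadily with width. Averaged over the NRPD1-HA libraries it was 5.72% for peaks of 100 to 200 bases, 5.41% to 400, 6.47% to 600, 7.81% to 800 and 9.03% for the 739 members of 800 to 1000 bases. It was 6.40% for the 207 members of 1000 to 1200 bases and 6.19% for the 105 longer ones. With a limit of 1000 bases the difference from narrower peaks was 0.302 points (exact sign-flip permutation p = 0.375). Directly at the limit, 4, 4, 5 and 5 of the 24 peaks of 800 to 804 bases and 0, 0, 1 and 1 of the 25 peaks of 795 to 799 bases had Pol IV within 1 kb.

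Pol IV near a member lay mostly on the side of the H3K4me3 peak that faces the 5′ end of the host. Among members with a nearest NRPD1-HA peak within 1 kb that did not touch them, it was on this upstream side of the peak, outside or inside the gene, in 50 of 58, 78 of 85, 59 of 64 and 99 of 106 cases (86.2 to 93.4%). Narrow peaks gave 85.1 to 88.1%. These NRPD1-HA peaks were of ordinary strength, with median fold enrichments of 4.42, 3.86, 3.44 and 4.86 in the 4 libraries against 4.38, 3.48, 3.58 and 4.06 for arm peaks away from any such H3K4me3 peak. Their median widths were 548, 638, 549 and 647 bases, against 816.5, 878, 747 and 880 for those other arm peaks. NRPD1-HA peaks within 1 kb of a narrow H3K4me3 peak had medians of 619, 728, 585 and 721.5 bases. A ZMP-HA peak lay within 1 kb of 12.6 to 19.4% of the NRPD1-HA peaks near members. The values were 20.3 to 29.1% for those near a narrow H3K4me3 peak only and 55.4 to 70.2% for the other arm peaks. Members and narrow peaks were chosen away from ZMP-HA peaks, so the lower shares are in part fixed by that rule. The part of ZMP-HA peaks in these widths was not tested.

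Only EMB1025 and NRPD1 were overlapped in both WT libraries, and both were also overlapped in both zmp-2 libraries. EMB1025 (AT4G20090), a pentatricopeptide repeat gene needed for embryo development, had its wide peak at chr4:10869897-10870698, and the NRPD1-HA peak upstream of it spanned 1268 to 1479 bases with fold enrichments of 6.34, 7.67, 6.48 and 10.2. They shared 37, 135, 27 and 168 bases, which reached into the AT-rich promoter printed above. The other members overlapped in WT replicate 1 were AT3G22520, AT3G23450 and LRX3, a cell wall extensin gene, and there was no other in WT replicate 2. At NRPD1 the NRPD1-HA fold enrichments were 5.04, 6.78, 4.22 and 9.003. The plants carried this gene on the transgene too, and a weaker NRPD1-HA peak inside the gene in WT replicates 1 and 2 stood on a background 10.3 and 10.4 times that of most peaks (2.87 times for the peak in zmp-2 replicate 1). DNA of the transgene and of the endogenous gene cannot be told apart there. The H3K4me3 library came from plants without it.

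In both zmp-2 libraries, NRPD1-HA peaks also overlapped KASI, AT1G49560 and AT5G53150, chosen after their values were seen. KASI, a fatty acid synthase gene of plastids, was 14 and 30 bases from Pol IV in WT, with fold enrichments of 5.41 and 6.07 there and 5.83 and 10.1 in zmp-2. AT1G49560, a homeodomain-like gene, was 9 and 57 bases away in WT. AT5G53150, a DnaJ-domain gene, was 5827 and 146 bases away in WT, so the first WT library had no peak near it.

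Among members near Pol IV in all NRPD1-HA libraries, the strongest NRPD1-HA peaks, ranked by the lowest of the 4 fold enrichments, lay beside SAE2, NHX1 and HIRA, again named after their values were seen. SAE2, a subunit of the SUMO-activating enzyme, had fold enrichments of 14.9, 11.7, 14.2 and 16.2 at 635 to 944 bases. NHX1, a vacuolar sodium/proton exchanger, had 13.9, 11.5, 11.4 and 16.9 at 293 to 429 bases. HIRA, a histone chaperone, had 12.1, 12.9, 10.8 and 16.4 at 749 to 864 bases. The nearest ZMP-HA peak lay 1028 bases from the SAE2 member, barely past the 1 kb limit, against 6941 at NHX1 and 14197 at HIRA. Of the 10 most enriched H3K4me3 peaks, 2 had Pol IV within 1 kb in any library. At AT2G15440 it lay 176, 233, 1483 and 148 bases away, and at AT2G04620 it lay 453, 312, 409 and 296 bases away. At the other 8 it lay 1091 bases (AT1G31130) to 34204 bases (CIPK7) away.

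At the other extreme, AT5G64170 lay 147078 to 147258 bases from any NRPD1-HA peak. STY46, a kinase of plastid protein import, lay 132656 to 181721 bases away, and its neighbour AT4G38520 114625 to 163690. MAX2, an F-box gene of strigolactone signalling, lay 89149 to 90023 bases away and the transporter gene ABCC5 88971 to 110843.

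The share of members within 1 kb of Pol IV differed between zmp-2 and WT by more than the SD of WT and less than that of zmp-2. Within 1 kb of Pol IV lay 7.23% ± 1.61 of members in WT and 9.23% ± 2.83 in zmp-2 (SD, n = 2 libraries each, difference 2.00 points, exact two-sided permutation p = 0.667, where 0.333 is the smallest that 2 against 2 allow). WT replicate 2 (8.37%) exceeded zmp-2 replicate 1 (7.23%), so the groups overlapped, and without zmp-2 replicate 2 the difference was 0. For overlap of at least 1 base the groups did not overlap: the WT values (0.476 and 0.190%) lay below both zmp-2 values (0.951%), a difference of 0.618 points that exceeded the SD of either group (exact permutation p = 0.333), on 2 to 10 members a library. Narrow peaks gave 4.98% ± 0.824 and 6.85% ± 2.31 within 1 kb. The replicates 2 had higher background estimates (41 and 38.69 fragments per base, against 25.02 and 26.61) and longer lists, and 20 members were near Pol IV only in the replicates 2 against 1 only in the replicates 1. The part of depth in these values was not tested.

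A few members were near Pol IV in one background only. In both WT libraries and neither zmp-2 library these were TOC33, AT2G23360 and AT1G31220. TOC33, a receptor for protein import into plastids, had the strongest NRPD1-HA peaks, with fold enrichments of 53.2 and 80.8 at 959 and 976 bases in WT, while the nearest peaks in zmp-2 lay 1390 and 1310 bases away, just past the limit. AT2G23360 lay 896 and 811 bases from Pol IV in WT and 15869 and 15864 in zmp-2, with fold enrichments of 7.07 and 7.21 in WT. AT1G31220, a formyltransferase gene of purine synthesis, lay 977 and 903 bases away in WT and 3672 and 2261 in zmp-2.

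In both zmp-2 libraries and neither WT library there were 8 such members. AT3G28660 had the strongest NRPD1-HA peaks of these, with fold enrichments of 4.56 and 9.47 in zmp-2 at 719 and 623 bases, against 5981 and 5963 bases to the nearest in WT. WEB1, a gene of chloroplast movement, had 3.22 and 4.71 at 277 and 186 bases, and AT2G26600, a glycosyl hydrolase gene, 3.22 and 6.80 at 257 and 159 bases. The mitochondrial intron maturase gene nMAT1 had 2.90 and 4.01 at 35 and 0 bases. The cell cycle inhibitor gene ICK1, AT2G25050, AT2G27260 and ATHB-15 had 2.25 to 3.73. In WT the nearest NRPD1-HA peaks of these 8 lay 4116 to 25794 bases away. The corresponding shares in narrow peaks were 0.162% for the WT-only pattern and 0.963% for the zmp-2-only pattern, against 0.285% and 0.761% of members, and no test was run on these counts.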

How the data were processed

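ChIP-seq peak lists of 11 immunoprecipitations of Col-0 inflorescences were analysed. Upstream, Trim Galore 0.4.3 removed adapters, Bowtie2 2.2.9 placed the paired reads on TAIR10, and MACS2 2.2.6 called each library separately over its input, as the authors' notes give it. The deposited lists hold an integer score, the fold enrichment at the summit (a ratio to local background) and −log10 p-values and q-values for each peak. The score was not used. Reads were not counted, so depth was inferred from the background that fold enrichment and p-value imply together (22.6 to 89.6% of the solved peaks of a list share 1 value).

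Nuclear peaks only were kept. Genes, products and sequences came from RefSeq TAIR10.1, whose chromosomes 1 to 5 no peak overran (27444 protein-coding genes). The host gene shares most bases with the peak. Distances count the bases between edges, and 0 means overlap or contact. Shares over libraries were compared by exact permutation tests (sign flips for wide against narrow, relabelling for zmp-2 against WT), which were tested on simulated data, and no p-value was adjusted since few were computed. Confidence intervals are Clopper-Pearson at 95% and cover counting error only. The members and gene lists were chosen with earlier results of these data known. Of 24 lists, 20 matched product names and 4 matched gene symbols, from which 4 genes that only share a symbol were removed after the lists were seen. Genes are named where their peaks were widest, most enriched, nearest to the width limit, overlapped by, near in one background to, or farthest from NRPD1-HA peaks, held most 5′ ends, or led a list, and exceptions are marked in the text. Alternatives changed the width limit, the ZMP-HA rule, the windows, peak thresholds, joining, the distance measure and the libraries used. Python 3.11.15, numpy 2.4.6, pandas 2.3.3 and scipy 1.17.1 were used.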

Additional observations from a re-analysis of the deposited data

How the results depend on the processing

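The single H3K4me3 library and 2 NRPD1-HA libraries per background limit these results: no width or enrichment has a replicate check, and no exact test here could pass 0.05. The number of wide arm peaks was 2758 with a minimum width of 600 bases, 312 with 1000 bases and 1873 when H3K4me3 peaks under 200 bases apart were joined, and 1007 to 1067 under the other 6 alternatives, of which leaving out a ZMP-HA replicate gave 1057 and 1067. The share with a protein-coding 5′ end inside was 29.0% at 600 bases, 44.6% at 1000 bases and 94.4% when ends within 500 bases counted. The excess of wide over narrow peaks near Pol IV kept its sign in 21 of 22 alternatives, reversed to -0.0662 points for overlap of at least 1 base (exact permutation p = 0.750), and was 2.15 to 2.52 points without 1 NRPD1-HA replicate. Its smallest positive values were 0.199 points from midpoints and 0.302 points at 1000 bases. The difference in median distance kept its sign in all 20 alternatives (-2.75 to -1.09 kb), and it was -2.75 to -2.20 kb without 1 NRPD1-HA replicate. The zmp-2 minus WT difference ranged from 0 to 4.00 points over 21 alternatives, both ends from leaving out 1 zmp-2 replicate. With a replicate block, it was 2.00 points (1.14 and 2.85 within replicates 1 and 2, exact permutation p = 0.500); the replicate numbers are not stated to mark a shared batch, although replicate differences in log10 distance correlated across arm peaks between backgrounds (r = 0.346 over 20777 peaks, which are not independent). The mean background share within 1 kb in plants without a transgene was 0.190% and fell to 0.0476% for overlap. Leaving out NRPD1, restricting narrow peaks to genes and measuring from host 5′ ends were added after the data were seen. The cause of these shifts was not tested.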
